A study of Mus musculus with 95 samples.

Results

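Feeding and fasting signals that liver and white fat send to the rest of the body were followed here as mRNA. The set holds 10 genes, taken by symbol from the deposited table of 55401 gene rows, and all 10 symbols were found. They are the lipoprotein lipase regulators Angptl8 and Angptl4, the fasting or stress signals Fgf21, Gdf15 and Inhbe, the fat hormones Lep, Adipoq, Retn and Cfd, and the epidermal growth factor family ligand Nrg4. The study put C57BL/6J mice into a state named TLS (a torpor-like state) for 3 months (Stim) and compared them with mice kept as controls over the same time (Con) and with mice taken at the start (T0). A row above the deposited counts gives 205 days as the age of Stim and Con, and the T0 mice were 83 days younger, so that age and 3 months of housing cannot be told apart in comparisons with T0. Each group holds 8 animals, 4 with the letter F and 4 with the letter M, and liver, white adipose tissue (WAT), kidney and cortex came from the same animals. How TLS is brought about, the feeding state and the hour of collection are not given in the sources used here. No transgene or agent is named in the labels. Animals are called by the codes of their labels.

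Angptl8 is made after feeding and takes part in inhibiting lipoprotein lipase, the enzyme that lets tissues take fat from circulating lipoproteins. Angptl4 is induced by fasting and by fatty acids through PPAR receptors and inhibits the same enzyme. Fgf21, Gdf15 and Inhbe respond in liver to fasting or to nutrient stress, in part through the transcription factor ATF4. Leptin, adiponectin, resistin and adipsin (Cfd) are classical secreted products of mouse fat cells.

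Promoter sequences are shown because the members with a match to the ATF4 composite motif could be set beside their measured levels. The table of RefSeq sequences (GRCm38.p6) matched 9 of the 10 members, all but Angptl4. The motif TGATGNAA, read on both strands in the 250 bases before the start, occurred in 3 of these 9 (Angptl8, Fgf21 and Inhbe), and in 3.45% of 32851 promoters of the same length. The C/EBP motif TTGCNNAA occurred in Angptl8 and Lep and in 9.56% of all promoters. An E-box, CACGTG, occurred in Fgf21 and in the second promoter listed for Gdf15, against 6.02%. The letters TTCNNNGAA, a STAT motif, were in none of the 9 windows and in 7.02% of all promoters. The remaining motifs searched were AGGTCA (Gdf15 and Nrg4, 14% of all promoters), TATAAA (Fgf21, 12.4%) and CCAAT (Gdf15, Inhbe and Adipoq, 33.8%). The 4 windows printed below run from 5′ to 3′ on the strand of the gene, and capitals mark every match to one of these motifs. The Angptl8 window is chr9:21835260-21835509 on the plus strand, with its ATF4 motif starting 130 bases and its C/EBP motif 100 bases before the start. In the Fgf21 window, chr7:45615491-45615740 on the minus strand, the capitals are the ATF4 motif read on the other strand, the E-box and the TATA box. The Inhbe window is chr10:127351849-127352098 on the minus strand and holds the ATF4 motif, again on the other strand, and a CCAAT box. The Lep window is chr6:29059971-29060220 on the plus strand and holds a palindromic C/EBP motif 55 bases before the start.
Angptl8: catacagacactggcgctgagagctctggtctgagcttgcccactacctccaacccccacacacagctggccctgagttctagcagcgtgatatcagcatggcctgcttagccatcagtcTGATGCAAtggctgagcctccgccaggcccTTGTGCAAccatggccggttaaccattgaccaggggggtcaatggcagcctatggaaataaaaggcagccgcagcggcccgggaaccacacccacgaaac
Fgf21: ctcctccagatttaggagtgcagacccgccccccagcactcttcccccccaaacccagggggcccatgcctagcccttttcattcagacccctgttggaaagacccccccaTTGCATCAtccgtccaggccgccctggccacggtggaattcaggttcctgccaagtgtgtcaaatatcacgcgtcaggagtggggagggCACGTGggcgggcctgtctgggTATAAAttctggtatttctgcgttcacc
Inhbe: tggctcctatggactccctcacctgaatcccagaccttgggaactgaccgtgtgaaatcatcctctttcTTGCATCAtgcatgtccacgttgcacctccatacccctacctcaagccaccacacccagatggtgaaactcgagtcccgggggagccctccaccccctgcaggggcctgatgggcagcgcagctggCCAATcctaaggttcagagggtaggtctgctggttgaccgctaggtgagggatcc
Lep: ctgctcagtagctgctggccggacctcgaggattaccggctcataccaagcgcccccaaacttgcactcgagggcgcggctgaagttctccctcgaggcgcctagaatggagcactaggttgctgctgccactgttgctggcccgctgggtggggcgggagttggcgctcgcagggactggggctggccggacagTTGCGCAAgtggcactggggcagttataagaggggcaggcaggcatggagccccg
A match describes letters and shows no binding.

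The values are raw read counts per gene from polyA RNA sequencing of 95 libraries, with 1 WAT library of the Con group not analysed here. Library totals ran from 4031533 to 29269511 reads in liver and from 15881766 to 29089492 in WAT. Levels are CPM, read counts scaled to the effective library size. Differences are log2 fold changes from edgeR's quasi-likelihood test with treatment and sex, adjusted by the Benjamini-Hochberg method over all genes tested in a tissue, and a gene was called at an adjusted p below 0.05. The filter on low counts kept 7 members in liver, 8 in WAT, 8 in kidney and 1 in cortex. The labelled tissues carried their markers, and the F and M letters matched Xist and Y-linked genes with 0 mismatches, although T0_4 and T0_5 carry exchanged letters in kidney. Every Stim library has a lower library number than every Con library, so library order and treatment cannot be told apart. In WAT, 3 libraries held over 500 CPM of skeletal muscle markers (B51B and B4B9 of Stim) or of male genital tract markers (T0_6). Another, A5DA of Stim, had the lowest summed adipocyte markers, 11789 CPM against 23437 CPM in the next Stim library, and the highest macrophage and kidney markers, 1814 and 342 CPM.

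Angptl8 was higher in the livers of the control mice than before the 3 months, a called difference, while its lower level after TLS did not pass the test against Con. Its liver level at T0 had a lowest value of 38.9, a median of 67.1 and a highest of 222 CPM. In Con livers the lowest was 141.2, the median 415 and the highest 795 CPM. In Stim livers these were 34.2, 188 and 280 CPM. All 8 Con livers were above the T0 mean of their sex, while the Stim values covered those of T0 and lay on both sides of the lowest Con values. Within F animals Con lay above T0 without overlap, as 1.58% of all genes did. Con exceeded T0 by 2.26 ± 0.41 (log2, SE), which is 4.79-fold (edgeR, adjusted p = 0.00532), and was called without each library in turn (1.99 to 2.58). It was the only one of the 7 members tested to be called in this comparison, against 0.529% of all genes tested. In bulk tissue fewer cells of a type and less RNA per cell cannot be told apart, for this and every later value.

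Between Stim and Con the Angptl8 liver difference was -1.49 ± 0.40 (log2, SE, 95% interval -2.28 to -0.70), a 2.80-fold lower level. It was just outside the threshold (edgeR adjusted p = 0.0529), with 0 of 8 Stim livers above the Con mean of their sex. The adjusted p was 0.0335 without A5DA, and 0.00762 by DESeq2, within a range of 0.00762 to 0.617 over 23 alternatives. Among F animals the 4 Con livers held 253, 458, 555 and 612 CPM and the 4 Stim livers 181, 194, 197 and 280 CPM. Among M animals the Con values were 141.2, 328.7, 373 and 795 CPM and the Stim values 34.2, 68.1, 107.7 and 232 CPM. The groups overlapped in both sexes, by 1 Stim library in each. The effect of Stim did not pass a test of difference between the sexes (M minus F, -0.75 ± 0.79, edgeR adjusted p = 0.885).

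In WAT, too, Angptl8 was highest in Con, at lower levels than in liver. The F values were 4.31, 5.58, 11.3 and 34.6 CPM at T0, 35.9, 62.9, 152 and 170 CPM in Con and 9.84, 11.5, 30.8 and 44.7 CPM in Stim. The M values were 4.16, 5.20, 5.35 and 10.4 CPM at T0, 14.9, 22.3 and 36.4 CPM in Con and 4.82, 4.86, 4.90 and 10.7 CPM in Stim. Con lay above T0 within both sexes without overlap, as 3.9% of all genes did in F and 5.2% in M. Every M Stim value lay below every M Con value, as in 6.44% of all genes. Con exceeded T0 by 2.46 ± 0.46 (log2, SE), or 5.51-fold (edgeR adjusted p = 0.0306). Angptl8 was 1 of 8 members called there, against 0.161% of all genes. The call was lost on leaving out any 1 of 9 of the 15 libraries (T0_1, T0_3, T0_4, T0_7, T0_8, 983B, A367, A123 or E329), with adjusted p up to 0.0738 and the difference between 2.26 and 2.80.

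For Stim against Con in WAT, Angptl8 differed by -2.08 ± 0.45 (log2, SE), 4.22-fold lower, with 0 of 8 Stim libraries above the Con mean of their sex. This did not pass (edgeR adjusted p = 0.159), while DESeq2 gave 0.0020 and the alternatives ran from 0.0020 to 0.344. No member of 8 was called in this comparison, where edgeR called 0.00596% of all genes. At an unadjusted p below 0.05 edgeR gave 1 member of 8 and 11.1% of all genes, and DESeq2 called 1 member and 1.08% of all genes. Without the 3 libraries that held muscle or genital tract reads the difference was -2.23 (adjusted p = 0.225). F animals held more Angptl8 mRNA in WAT than M animals, the M minus F difference being -1.71 ± 0.37 (edgeR adjusted p = 0.00331), where 11.8% of all genes differed by sex. Kidney held 0.867 to 4.73 CPM over its 24 libraries, and in cortex 1 library held all 3 reads. The Stim-minus-Con effect did not pass a test of difference between liver and WAT (0.60 ± 0.61, 95% interval -0.59 to 1.79). The Stim-minus-Con and Con-minus-T0 comparisons share the Con libraries, so their opposite signs are not independent.

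**Figure D1:**
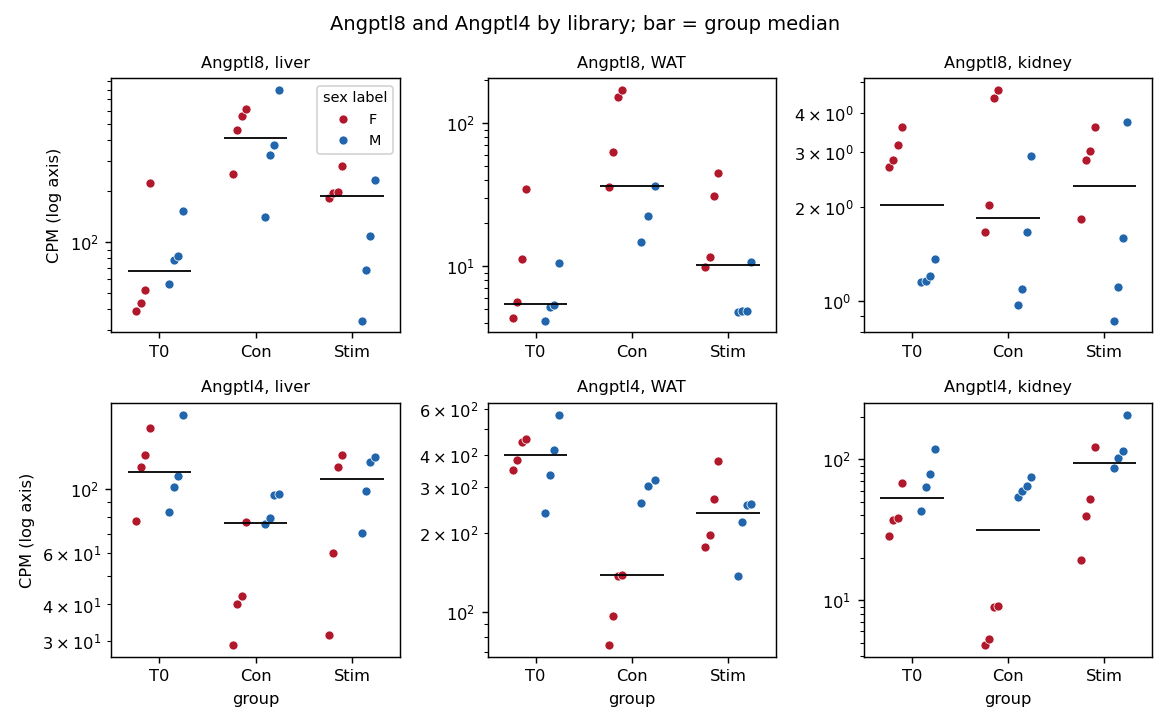
Angptl8 (top) and Angptl4 (bottom) in each library of liver, WAT and kidney, in CPM on log axes, with F libraries in red, M libraries in blue and a bar at the group median. Con stands highest for Angptl8 in liver and WAT (medians 415 and 36.4 CPM), while the 4 F Con kidneys stand lowest for Angptl4 (4.78 to 9.14 CPM).

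Angptl4 had its lowest median in Con in 3 tissues, and its calls within 1 sex fell in F animals. Within M animals few genes of any kind were called, 0.0312% of all genes for Stim minus Con in kidney. The share within M was 0% for Con minus T0 in kidney and for both of these comparisons in WAT. Contrasts within a sex were added after seeing the data, and by edgeR no sex difference of the Stim effect on Angptl4 passed. In F kidneys Angptl4 held 28.7, 37.2, 38.3 and 67.8 CPM at T0, 4.78, 5.33, 8.97 and 9.14 CPM in Con and 19.2, 39.8 and 52.1 CPM in 3 Stim kidneys, with the remaining one above every F T0 kidney. In M kidneys it held 42.6, 63.6, 78.98 and 118.6 CPM at T0, 53.97, 59.96, 64.5 and 74.3 CPM in Con and 86.3, 102.6, 114.9 and 208 CPM in Stim. The F Con kidneys lay below every other kidney, and 11.1% of all genes lay without overlap below T0 in F Con kidneys. Stim lay above Con without overlap within each sex, as 5.5% of all genes did in F and 0.887% in M.

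Among F kidneys alone Angptl4 was 8.37-fold higher in Stim than in Con (3.07 ± 0.45, log2, SE; edgeR adjusted p = 0.0015), where 0.15% of all genes were called. Con fell by 2.63 ± 0.45 on the log2 scale from T0 in F kidneys (edgeR adjusted p = 0.0083), where 2.19% of all genes were called. In M kidneys Stim minus Con was 1.02 ± 0.41 (edgeR adjusted p = 0.523) and Con minus T0 was -0.26. The effect of Stim differed between M and F by -2.05 ± 0.59, which did not pass over all genes (edgeR adjusted p = 0.554). Over both sexes Angptl4 was higher in Stim kidneys by 1.84 ± 0.40, just outside the threshold (edgeR adjusted p = 0.0504), with 8 of 8 Stim kidneys above the Con mean of their sex. The adjusted p was 0.0468 without E46E, 0.0356 without B03E, 0.0019 by DESeq2 and 0.823 without sex in the model. In this comparison edgeR called 0 of 8 kidney members and 0.231% of all genes, and at an unadjusted p below 0.05 it gave 2 members and 8.45% of all genes. DESeq2 called 1 member and 0.648% of all genes.

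In WAT the F values of Angptl4 were 349, 382, 447 and 458 CPM at T0, 74.5, 96.1, 137.2 and 138.1 CPM in Con and 178, 196, 270 and 379 CPM in Stim. The M values were 238, 333, 417 and 569 CPM at T0, 261, 304 and 320 CPM in Con and 136.85, 222, 257 and 258 CPM in Stim. F Con lay below both other F groups (3.34% of genes for T0 and 2.94% for Stim), whereas M Con lay above M Stim (6.44% of genes). Among F animals Con fell by 1.88 ± 0.28 on the log2 scale from T0, 3.67-fold lower (edgeR adjusted p = 0.0063), where 0.0477% of genes were called. F Stim minus Con was 1.20 ± 0.28 (adjusted p = 0.151) and M Stim minus Con was -0.43 ± 0.30 (adjusted p = 0.429). The difference between these effects, -1.63 ± 0.41, did not pass (edgeR adjusted p = 0.187). DESeq2 gave 0.018, and the range over the alternatives was 0.018 to 0.41. Over both sexes Con minus T0 was -1.13 ± 0.28 (edgeR adjusted p = 0.108), with 0 of 7 Con libraries above the T0 mean of their sex. That adjusted p was 0.0497 without T0_6 and 0.00798 by DESeq2, and Stim minus Con over both sexes was 0.39 ± 0.27 (adjusted p = 0.626).

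Liver Angptl4 had F values of 77.5, 119.1, 130.6 and 163 CPM at T0, 28.9, 40.1, 42.6 and 77.1 CPM in Con and 31.4, 60.1, 119.1 and 130.95 CPM in Stim. The M values were 83.1, 101.96, 110.7 and 181 CPM at T0, 75.6, 79.3, 95.5 and 96.5 CPM in Con and 70.5, 98.2, 123.7 and 129.1 CPM in Stim. The F Con livers were below the F T0 livers without overlap, as were 2.16% of all genes, and F Stim spanned both. No liver comparison of Angptl4 passed over both sexes (edgeR, Con minus T0 -0.91 ± 0.27, adjusted p = 0.130, and Stim minus Con 0.54 ± 0.26, adjusted p = 0.283). In cortex the level was lower, 0.635 to 2.08 CPM at T0, 0.977 to 1.97 CPM in Con and 1.17 to 5.86 CPM in Stim. There Stim exceeded T0 by 1.06 ± 0.26 (edgeR adjusted p = 0.00217), in a comparison that called 35.7% of all genes, and Stim minus Con was 0.83 ± 0.26 (adjusted p = 0.0547). Across libraries, after removing the mean of each sex, log2 levels of Angptl8 and Angptl4 had a Pearson r of -0.62 in liver (24 libraries) and -0.70 in WAT (23 libraries). These values describe libraries that share the same groups and animals.

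**Figure D2:**
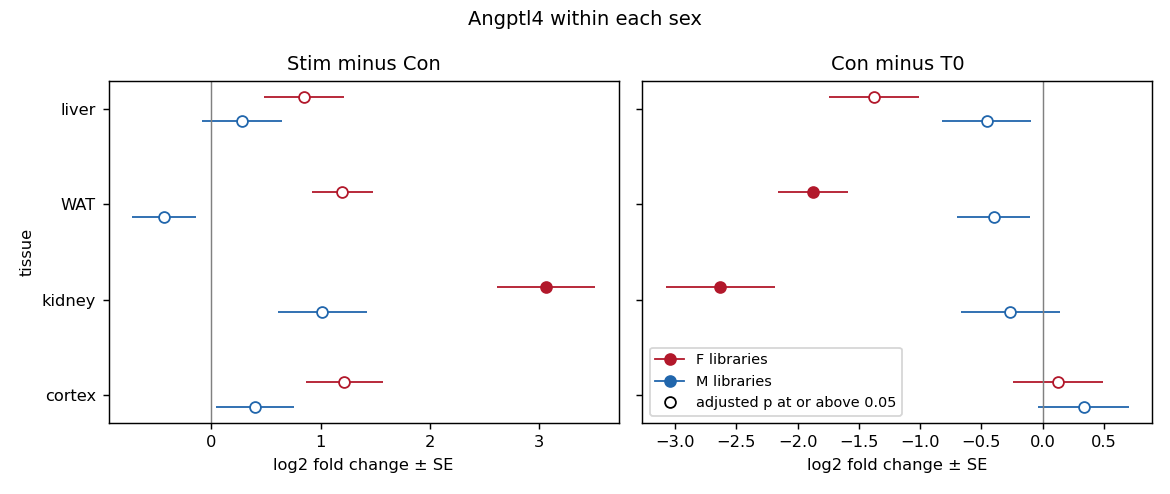
Log2 fold change of Angptl4 with its SE in F (red) and M (blue) libraries of liver, WAT, kidney and cortex, for Stim minus Con (left) and Con minus T0 (right), where filled points passed an adjusted p of 0.05. The F kidney points lie farthest from 0, at 3.07 and -2.63, and the WAT points for Stim minus Con lie on both sides of 0, at 1.20 for F and -0.43 for M.

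The gene lists used here and below were chosen with earlier results of these data known. Their counts, set beside the shares of all genes, therefore describe the lists and do not test them. Other genes of the lipoprotein lipase axis gave 1 call, a rise, of 12 measured in liver for Stim minus Con, a comparison in which 0.684% of all genes rose and 1.26% fell. Lpl itself rose by 1.72 ± 0.40 on the log2 scale, from 23.5 ± 8.34 CPM in Con to 77.97 ± 74.1 CPM in Stim (SD, n = 8; edgeR adjusted p = 0.027). The Lpl call was lost without B51B, B4B9, 9BA4 or 9916 (adjusted p up to 0.0706), and the difference was 1.17 without B4B9. The list's median was -0.32 and that of all genes tested was 0.08. No gene of this list was called in WAT (9 measured, median -0.12 against 0.04 for all genes).

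Genes of feeding and lipid synthesis were read beside Angptl8. In liver 4 of 14 fell in Stim against Con, where 1.26% of all genes fell, and none of the 14 rose, with a median of -1.06. Fasn, the fatty acid synthase, was lower by -1.95 ± 0.36, at 1080 ± 528 CPM in Con and 254 ± 158 CPM in Stim (SD, n = 8; edgeR adjusted p = 0.00518). Acly, which makes acetyl-CoA for that synthesis, was lower by -1.63 ± 0.28, at 257 ± 127.9 and 81.9 ± 31.1 CPM (edgeR adjusted p = 0.00301). Both calls held with each of the 16 libraries left out in turn. Thrsp, a lipogenic response gene, fell by 2.23 ± 0.49 on the log2 scale, from 1679 ± 606 to 358 ± 311 CPM (SD, n = 8; edgeR adjusted p = 0.0189). Without 9916 its adjusted p was 0.0545. Pklr, the liver pyruvate kinase, fell by 1.28 ± 0.31 (adjusted p = 0.033), a call lost without B51B, B4B9, E46E, 9BA4 or 9916 (adjusted p up to 0.0706). No gene of the list was called in WAT (13 measured, median 0.08).

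Genes of fasting and PPARA activity were read beside Angptl4 and Fgf21. In liver 1 of 18 rose in Stim against Con, against 0.684% of all genes, with a list median of -0.01. This was Cyp4a31, a fatty acid hydroxylase, at 6.49 ± 3.70 CPM at T0, 1.30 ± 0.76 CPM in Con and 5.11 ± 3.68 CPM in Stim (SD, n = 8). It rose by 1.82 ± 0.38 between Con and Stim (edgeR adjusted p = 0.0132), having fallen from T0 to Con (adjusted p = 0.00222). Cpt1a, which carries fatty acids toward mitochondrial oxidation, was at 133.9 ± 34.0 and 207 ± 77.6 CPM in Con and Stim (adjusted p = 0.106). In WAT 0 of 14 were called, with a median of 0.53 against 0.04 for all genes.

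The 3 signals with fasting or stress roles (Fgf21, Gdf15 and Inhbe) did not pass in any treatment comparison of liver. Fgf21, the fasting hormone that acts through Klb and FGF receptors, was scarce. Its lowest, median and highest values were 0.217, 0.901 and 3.19 CPM at T0, 0.375, 0.931 and 2.87 CPM in Con and 0.814, 1.16 and 4.09 CPM in Stim. The 3 groups overlapped over most of their range, and Stim minus Con was 0.50 ± 0.49 (edgeR adjusted p = 0.619). WAT held 159 Fgf21 reads in all 23 libraries together, cortex 13, and in kidney 1 library (A5DA) held all 6.

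Gdf15, a stress hormone whose receptor Gfral sits in the hindbrain, was most uneven among the Con livers. The F Con livers held 1.66, 8.77, 16.1 and 31.7 CPM and the M Con livers 0.312, 1.00, 2.86 and 6.25 CPM. T0 livers lay between 3.00 and 7.04 CPM, and Stim livers between 5.73 and 7.52 CPM apart from B4B9 at 16.4 CPM. The Con range thus enclosed those of T0 and Stim, and Stim minus Con was 0.15 (edgeR adjusted p = 0.908), changing sign with sex or single libraries. In kidney Gdf15 held 5.49 to 12.3 CPM at T0, 2.15 to 10.1 CPM in Con and 3.01 to 8.77 CPM in 7 Stim libraries, with A5DA at 45.9 CPM. Kidney Stim minus Con was 0.58 (adjusted p = 0.729) and -0.18 without A5DA. Median Gdf15 levels were higher in kidney than in liver at T0 (3.84 against 2.03 CPM per kb of exon) and in Con (3.60 against 2.46). In Stim they were 3.34 in kidney and 3.66 in liver. WAT levels were 0.0913 to 3.72 CPM, with the highest 2 in Stim (47BE at 3.55 and A5DA at 3.72 CPM).

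Inhbe, the activin E subunit made by hepatocytes, ran from 37.2 to 68.7 CPM at T0 (median 54.9), 29.9 to 78.2 CPM in Con (median 54.5) and 24.7 to 49.5 CPM in Stim (median 39.5). Stim livers reached lower maxima than either other group but overlapped both, and Stim minus Con was -0.37 ± 0.19 (edgeR adjusted p = 0.317). None of the 23 WAT libraries held an Inhbe read, which allows up to 0.0063 CPM over the tissue for counting error alone. Kidney held 13 Inhbe reads over all its libraries. The 3 members with an ATF4 motif (Angptl8, Fgf21 and Inhbe) thus had Stim-minus-Con liver differences of -1.49, 0.50 and -0.37, none of them called.

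Of 12 ATF4 and stress response genes measured in liver, 1 rose in Stim against Con, as 0.684% of all genes did, with a median of 0.71 against 0.08 for all genes. It was Cebpb, a transcription factor of the C/EBP family, at 108.2 ± 21.6 CPM in Con and 189 ± 71.5 CPM in Stim (SD, n = 8; 0.80 ± 0.20, edgeR adjusted p = 0.0346). Leaving out B51B, DDF3, 983B, A367, 9BA4 or 9916 ended that call (adjusted p up to 0.0863). Trib3, a pseudokinase induced by ATF4, fell from T0 to Con, 11.4 ± 5.68 to 2.87 ± 0.81 CPM (-1.92 ± 0.29, adjusted p = 0.000965), and Stim held 5.21 ± 2.93 CPM. Asns, the asparagine synthetase of the same response, was at 2.0 ± 2.93 CPM in Con and 6.46 ± 12.6 CPM in Stim (adjusted p = 0.141).

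Among receptors of these hormones, 2 of 14 measured in liver rose in Stim against Con (median 0.20), where 0.684% of all genes rose. Erbb3, a receptor of the family that binds neuregulins, was at 80.1 ± 15.2 CPM at T0, 42.5 ± 5.70 CPM in Con and 69.4 ± 10.9 CPM in Stim (SD, n = 8). It fell from T0 to Con (-0.91 ± 0.13, edgeR adjusted p = 0.00062) and rose from Con to Stim (0.72 ± 0.13, adjusted p = 0.00518), and that second call held without each library in turn. Fgfr1, a receptor of Fgf21, rose from 2.61 ± 1.38 to 5.14 ± 2.46 CPM (1.02 ± 0.27, adjusted p = 0.0434), a call that 12 of 16 libraries ended when left out, all but DDF3, A5DA, B23B and B03E (adjusted p up to 0.111). Socs3, a target of cytokine and leptin receptor signalling, was the 1 of 6 response genes called, from 6.05 ± 2.22 to 20.8 ± 23.6 CPM (adjusted p = 0.0467), and the call ended without B4B9, A5DA, E46E, 983B, A367, 9BA4, E329, 9916 or 5A66 (adjusted p up to 0.119). No gene of these lists was called in WAT for Stim minus Con (16 and 6 measured, medians 0.10 and 0.06).

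**Figure D3:**
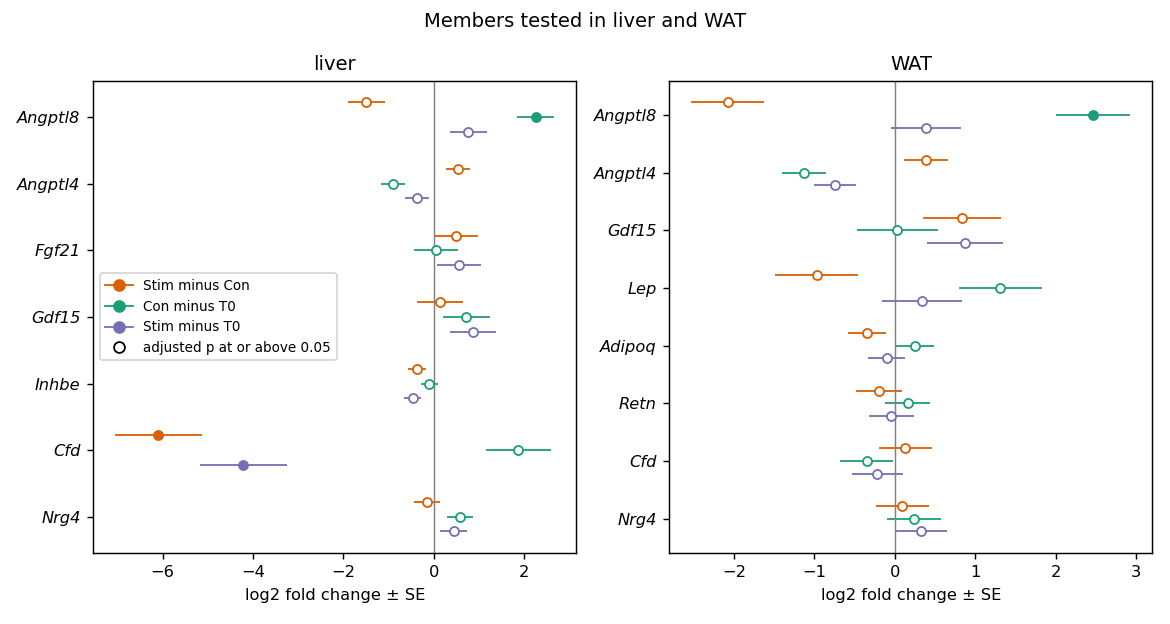
Log2 fold change with its SE for the 7 members tested in liver (left) and the 8 tested in WAT (right), in 3 comparisons, where filled points passed an adjusted p of 0.05. The filled points are Con minus T0 of Angptl8 in both tissues (2.26 and 2.46) and 2 comparisons of Cfd in liver (-6.09 and -4.22).

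Leptin, the fat hormone that reports energy stores to the brain, had its highest median in Con WAT. The F values were 662, 718, 789 and 1288 CPM at T0, 1419, 1770, 2458 and 3776 CPM in Con and 180, 359, 1433 and 2271 CPM in Stim. The M values were 823, 825, 1116 and 2525 CPM at T0, 1970, 2737 and 3926 CPM in Con and 111.96, 1080, 2094 and 3570 CPM in Stim. Every F Con library was above every F T0 library, as were 3.9% of all genes, and the M groups overlapped by 1 T0 library. The 3 lowest libraries of all were Stim, namely A5DA, B51B and B4B9. Each of them held reads of other tissues or few adipocyte markers. T0_6, with genital tract reads and the lowest summed adipocyte markers at T0, held 825 CPM of Lep and was not among the lowest. Con minus T0 was 1.31 ± 0.52 (edgeR adjusted p = 0.323), with 7 of 7 Con libraries above the T0 mean of their sex. Stim minus Con was -0.97 ± 0.51 (adjusted p = 0.487), and -0.61 without B51B, B4B9 and T0_6 (adjusted p = 0.571). The part of the other tissues' reads in these Lep values was not tested beyond this.

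Adiponectin (Adipoq), a hormone that raises insulin sensitivity, was steadier. Its F values were 3095, 3341, 3415 and 4104 CPM at T0, 2917, 3294, 3461 and 3699 CPM in Con and 2933, 3047, 3904 and 4431 CPM in Stim. The M values were 1303, 3025, 3432 and 3496 CPM at T0, 3896, 4259 and 4516 CPM in Con and 978, 2158, 2838 and 3406 CPM in Stim. All 4 M Stim libraries lay below all 3 M Con libraries, as 6.44% of all genes did, and the F groups overlapped widely. The lowest 2 values belonged to A5DA and T0_6. Stim minus Con was -0.35 over both sexes (edgeR adjusted p = 0.612) and -0.20 without A5DA.

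Resistin (Retn), secreted by mouse fat cells, had medians of 1565 CPM at T0, 2054 CPM in Con and 1454 CPM in Stim, within 482 to 3505 CPM. Cfd, the serine protease that starts the alternative complement pathway, was the most abundant member in WAT, with a median of 11625 CPM at T0 (3829 to 13951), 9375 CPM in Con (4216 to 14491) and 7599 CPM in Stim (5268 to 18666). Nrg4 had medians of 72.6, 105.7 and 107.6 CPM at T0, in Con and in Stim, within 25.3 to 180 CPM. The groups of all 3 genes overlapped, and no treatment comparison of them passed in WAT. Stim minus Con was -0.20 for Retn, 0.13 for Cfd and 0.09 for Nrg4 (edgeR adjusted p = 0.844, 0.919 and 0.946). Nrg4 in liver held 10.5 to 20.0 CPM in Con and 4.77 to 25.7 CPM in Stim (-0.14, adjusted p = 0.831). Its exons share 368 bases with Fbxo22 on the opposite strand, and the strand of counting is not given, so reads there cannot be assigned with certainty.

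**Figure D4:**
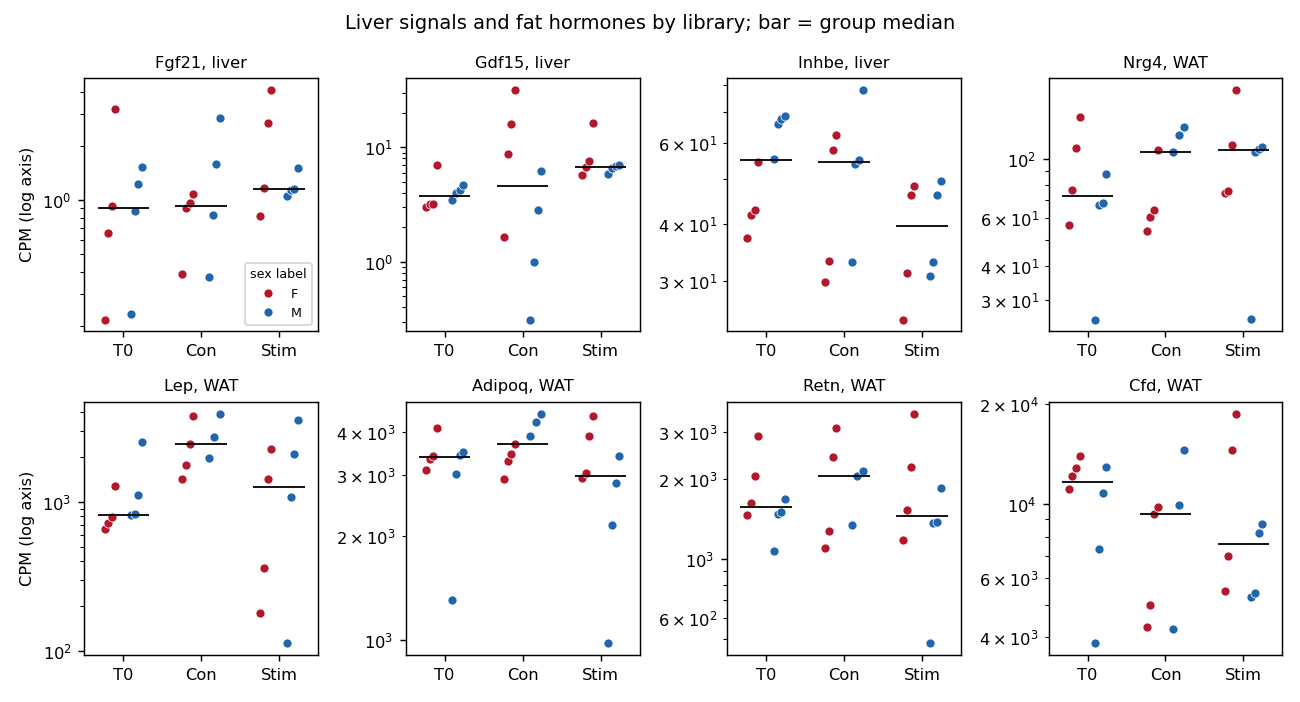
Fgf21, Gdf15 and Inhbe in liver and Nrg4, Lep, Adipoq, Retn and Cfd in WAT, in CPM per library on log axes, with F in red, M in blue and a bar at the group median. The Stim group holds the lowest Lep values (111.96, 180 and 359 CPM), and the Con livers spread over the widest Gdf15 range (0.312 to 31.7 CPM).

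Liver Cfd gave the largest treatment difference of any member, at levels far below those of fat, and 2082 of its 2104 liver reads were in M animals. M livers held 1.55, 2.7, 3.32 and 7.76 CPM at T0, 7.56, 11.1, 27.0 and 56.8 CPM in Con and 0, 0.165, 0.216 and 0.399 CPM in Stim. As reads, the 4 M Con livers held 1745 in all, and the 4 M Stim livers 0, 4, 4 and 8. Every F liver held at most 0.533 CPM (11 reads or fewer). The 3 M groups overlapped only between T0 and Con, by 1 library, and all M Stim livers lay below all M Con and M T0 livers, as 4.15% and 2.39% of all genes did.

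Cfd passed the low-count filter in liver only through the M libraries of T0 and Con, the groups where it is high, so its entry among the genes tested is not independent of the difference and its calls are given as a description. Among M livers Cfd was lower in Stim than in Con (-6.95 ± 0.85, log2, SE; edgeR adjusted p = 0.000169), in a comparison that called 0.39% of all genes. Against T0 the M Stim livers differed by -4.22 ± 0.80 (adjusted p = 0.0158, 0.235% of genes called), and M Con minus T0 was 2.73 ± 0.65 (adjusted p = 0.131). F Stim minus Con was 0.08 ± 2.06. The effect of Stim differed between M and F by -7.02 ± 2.47 without passing (edgeR adjusted p = 0.725), while DESeq2 gave 0.0496 and the alternatives ran from 0.00203 to 1.00. Over both sexes Stim minus Con was -6.09 ± 0.96 (edgeR adjusted p = 0.00118), where 1.95% of genes were called, and it lay between -6.48 and -5.21 with any 1 library left out. With no filter it was -6.11 (adjusted p = 0.00655), and with only Stim and Con fitted Cfd did not pass the filter. Stim minus T0 over both sexes was -4.22 ± 0.96 (adjusted p = 0.0245), against 1.34% of genes called. That call was lost without DDF3, E46E or T0_8 (adjusted p up to 0.0737), with no filter (0.085) and by DESeq2. In the fit with treatment and sex, which gives a single sex difference for all groups, M livers held 50.7-fold more Cfd than F livers (edgeR adjusted p = 4.23e-06). There 6.4% of genes differed by sex. This value does not describe the Stim livers, which held 0 to 8 Cfd reads in M and 0 to 2 in F.

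Other fat cell genes were measured beside this Cfd value. The M livers held 68 Adipoq reads in all, and over the 9 with any the median ratio was 26.0 Cfd reads to 1 Adipoq read. These ratios are uncertain, since the highest, 492 in 9BA4, rests on 1 Adipoq read. So do those of T0_7, 5A66 and the Stim livers DDF3, E46E and 47BE, where the Stim ratios were 4, 0 and 4. In WAT, where every library held at least 19967 Adipoq reads, the median ratio was 2.94 in M libraries and 2.85 in F, within 1.08 to 5.55. In kidney libraries with any Adipoq read it was 6.06 in M and 5.53 in F, within 2.99 to 33.1. The cellular origin of the liver Cfd reads was not tested. Summed adipocyte markers in liver ran from 77.9 to 155 CPM at T0, 71.4 to 183 CPM in Con and 96.3 to 220 CPM in Stim, and 0 of the 6 measured were called for Stim minus Con. Liver libraries held 18 Lep, 87 Adipoq and 61 Retn reads in all. A367, the Con liver with the most Cfd, held 16, 37 and 28 of these, and Stim minus Con for Cfd was -5.21 without it. None of the 6 measured complement partners of Cfd was called in liver. C3, the central complement protein, was at 5722 ± 1268 CPM in Con and 8162 ± 4660 CPM in Stim (adjusted p = 0.320).

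In a joint fit of liver and WAT, the Stim-minus-Con effect on Cfd differed between liver and WAT by -6.23 ± 0.96 (log2, liver minus WAT, 95% interval -8.11 to -4.35, edgeR adjusted p = 0.0010). It was 1 of 10 members called, where 0.186% of 17716 genes were called. With the animal as a block, since both tissues came from the same mice, the value was -4.88 and the adjusted p 0.129, with 0 members called.

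**Figure D5:**
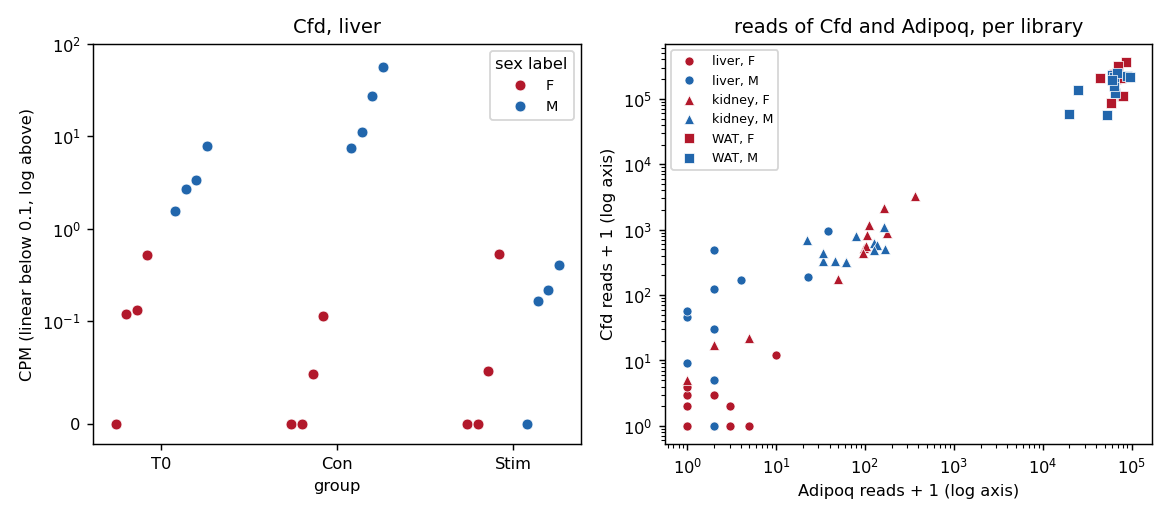
Left, Cfd in each liver library in CPM (linear below 0.1, log above) by group, with F in red and M in blue. Right, reads of Cfd against reads of Adipoq, each plus 1, on log axes for liver, kidney and WAT libraries: M livers reach 961 Cfd reads at 37 Adipoq reads or fewer, while WAT libraries lie along a ratio of 1.08 to 5.55.

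Kidney held 0 to 5.63 CPM of Lep, 0 to 15.2 CPM of Adipoq and 0.0922 to 9.32 CPM of Retn. Cfd was more abundant there, at 0.478 to 135.1 CPM, with medians of 54.4, 22.8 and 31.5 CPM per kb of exon at T0, in Con and in Stim. Kidney Cfd did not pass for Con minus T0 (-1.59 ± 0.70, edgeR adjusted p = 0.403). Kidney Lep did not pass for Stim minus Con (-1.76 ± 0.84, edgeR adjusted p = 0.583), with 0 of 8 Stim kidneys above the Con mean of their sex. Angptl4, Angptl8 and Nrg4 were the 3 of 8 members that differed by sex there, in a tissue where 46.8% of genes did. M kidneys held more Angptl4 (1.65 ± 0.33, edgeR adjusted p = 0.000286) and more Nrg4 (0.92 ± 0.25, adjusted p = 0.00347), and less Angptl8 (-0.96 ± 0.24, adjusted p = 0.00181).

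Compared per kilobase of exon, the order of levels differed between the tissues. In Con livers the median was 480 CPM per kb for Angptl8, 21.6 for Angptl4, 10.2 for Inhbe, 2.46 for Gdf15, 2.19 for Nrg4 and 0.979 for Fgf21. Gdf15 and Nrg4 are neighbours whose ranges overlapped. Cfd has no single place in this order, since its Con liver median was 0.0241 CPM in F and 19.1 CPM in M. In Con WAT the median was 10168 CPM per kb for Cfd, 2679 for Adipoq, 1301 for Retn, 733 for Lep, 42.1 for Angptl8, 39.0 for Angptl4, 17.4 for Nrg4, 0.364 for Fgf21 and 0.361 for Gdf15. Angptl8 and Angptl4 overlapped in Con WAT, but at T0 the medians were 6.32 and 112.8 CPM per kb and the ranges did not meet (4.81 to 40.1 against 67.3 to 160.7).

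The genes with the most similar pattern were found by Pearson correlation of log2 CPM over the libraries of 1 tissue, after removing the mean of each sex. For liver Angptl8 these were G0s2 (0.78), Id3 (0.73) and Rn7sk (0.73) over 24 libraries. For WAT Angptl4 they were Txnip (0.86), Zfp703 (0.83) and Ggcx (0.80) over 23 libraries. In WAT, 1700047G03Rik was nearest to Lep (0.96), Plaat3 to Adipoq (0.95), Sdhc and Thrsp to Retn (0.94 each), Ces1f to Cfd (0.94) and Pex13 to Nrg4 (0.92). Liver Inhbe was nearest to Psmd12 (0.80) and liver Fgf21 to Bik (0.73), while kidney Gdf15 was nearest to Sema3f (0.84). Points in each case share group, depth and, in WAT, the libraries with reads of other tissues.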

How the data were processed

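The deposited table holds raw counts, whole numbers of reads per gene and library. Per the submitters' processing notes, the authors aligned with STAR 2.7.10 to mm10 (GRCm38) and used DESeq2, and the first line of the deposited count table calls it corrected, with no further explanation. Whether strand was used in counting is not given there. The total count per library ran from 4031533 to 29269511, and no column of another series was present (0 columns). The members and gene lists were chosen with earlier results of these data known, and all 10 members are named. Further list genes were the called ones and those with the smallest p.

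Each tissue was fitted by itself with edgeR 4.0.16 in R 4.3.3: filterByExpr with a minimum count of 10, TMM, robust quasi-likelihood, and treatment plus sex as terms. Benjamini-Hochberg adjustment ran over all genes tested (13604 in liver, 16784 in WAT, 16005 in kidney and 16609 in cortex), with calls at 0.05. CPM used TMM-scaled totals, and log2 CPM a prior count of 2. Treatment by sex and treatment by tissue were tested as interactions, and values within a sex came from contrasts of the former. The scripts were tested on simulated data. Replicates are separate animals. Alternatives were DESeq2 1.42.0, RLE size factors, no filter, no sex term, only the 2 groups compared and each library left out. Each sex apart and WAT without 3 libraries that hold muscle or genital tract reads were added after seeing the data.

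Liver and WAT are paired by the animal codes of the labels. Over 12799 genes the deviations of 23 same-animal pairs had a mean correlation of 0.0109 (-0.172 to 0.331), against -0.00142 in 69 other pairs. The joint fit was therefore also run with the animal as a block. Gene positions were checked against GENCODE annotation of GRCm38, in which Angptl8 lies within Dock6 on the opposite strand (0 shared exon bases). Counts of reads are subject to counting error, and floors for 0 counts use 3 reads. Genes with more than 1 row of the same symbol were left out of the lists. Results of some genes of the lists are not reported here.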

Additional observations from a re-analysis of the deposited data

Results flagged for a closer look

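Among 72 groups of 4 to 10 libraries, 7 held a value set apart from the rest of its group by a gap larger than Dixon's 95% critical value, which chance alone gives in about 1 group in 20. Liver Gdf15 was 16.4 CPM in B4B9, where the next highest Stim liver held 7.52 CPM. WAT Angptl8 was 34.6 CPM in T0_2, where the next highest T0 library held 11.3 CPM. WAT Adipoq was 1303 CPM in T0_6, the T0 library with male genital tract reads, and 3025 CPM in the next lowest.

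A5DA of Stim supplied 2 of these values. Its WAT held 25.4 CPM of Nrg4, against 74.7 CPM in the next lowest Stim library, beside the lowest summed adipocyte markers of its group (11789 CPM). Its kidney held 45.9 CPM of Gdf15, against 8.77 CPM in the next highest. The part of that WAT library's makeup in its Nrg4 value was not tested.

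The Stim kidney B23B supplied the other 2. It held 0.0922 CPM of Retn and 0.968 CPM of Cfd, where the next lowest Stim kidneys held 2.10 and 20.9 CPM, and it had 4 Adipoq reads and 0 Lep reads.

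The effect of Stim on Cfd differed between liver and WAT, with a log2 difference of -6.23 (edgeR, adjusted p 0.0010), which did not pass with the animal as a block (-4.88, adjusted p = 0.129).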

How the results depend on the processing

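The 10 members gave 1488 values under the alternatives that kept their direction and their side of the threshold, against 61 that changed sign, 22 that passed only under the alternative and 24 that no longer passed. Of the 1488, 1114 came from leaving out 1 library or animal, and values that passed in neither fit count among them. The tally leaves out Lep, Adipoq, Retn and Cfd in kidney. For members other than Angptl8 and Angptl4 it also leaves out uncalled Stim-minus-T0 and M-minus-F values. For those members the sex difference of the Stim effect is held for liver Cfd only. Low read numbers limit liver Cfd, and each sex and group has at most 4 animals. The cause of the changes below was not tested. Fits without 1 group or 1 library rest on fewer libraries, while values within 1 sex are contrasts of the treatment by sex fit over all libraries of a tissue.

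Members called by DESeq2 numbered 2 in liver and 1 in WAT for Stim minus Con, 2 in WAT for Con minus T0, 0 in liver for Stim minus T0, 1 each in kidney and cortex for Stim minus Con, and 1 each in liver and WAT for the sex difference of the Stim effect. In the same order DESeq2 called 4.58%, 1.08%, 1.32%, 3.51%, 0.648%, 8.24%, 0.0738% and 1.31% of all genes with an adjusted p. Without the filter they numbered 0 in liver for Stim minus T0, 0 in WAT for Con minus T0, 1 in cortex for Stim minus Con and 2 in liver for the sex difference. Without the sex term they numbered 0 in liver for Stim minus T0 and 0 in WAT for Con minus T0. With only the 2 groups compared, liver gave 0 for Stim minus Con, where Cfd did not pass the filter, 2 for Con minus T0 and 0 for Stim minus T0. Within F, by contrasts of the treatment by sex fit, liver gave 0 in each of the 3 comparisons. There 0.147% (Stim minus Con), 0.0441% (Con minus T0) and 0.184% (Stim minus T0) of all genes were called. Kidney gave 1 for Stim minus Con and 1 for Con minus T0, against 0.15% and 2.19% of all genes. Within M the counts were 0 in liver and WAT for Con minus T0 and 0 in cortex for Stim minus T0. In the same order 0.0735%, 0% and 13.7% of all genes were called. Shares of all genes are not reported here for fits without the filter, without the sex term, with 2 groups or with 1 library left out. The member counts of those fits are therefore description only.

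Leaving out 1 library at a time, the members called ranged from 1 to 2 in liver for Stim minus Con, 0 to 1 in liver for Stim minus T0, 0 to 2 in WAT for Con minus T0, 0 to 1 in kidney and in cortex for Stim minus Con, and 3 to 5 in kidney for M minus F (5 without A123). Values whose sign changed ranged as follows: Gdf15 liver Stim minus Con -0.088 to 0.70, Fgf21 liver Con minus T0 -0.31 to 0.48, Cfd and Nrg4 WAT Stim minus Con -0.061 to 0.40 and -0.074 to 0.26, and Gdf15 WAT Con minus T0 -0.35 to 0.36. In kidney Angptl8 ranged from -0.32 to 0.15 (Stim minus Con) and -0.089 to 0.29 (Stim minus T0), Gdf15 Stim minus Con from -0.18 to 0.78 and Nrg4 Con minus T0 from -0.24 to 0.072. The sex difference of the Angptl8 effect ranged from -0.21 to 0.64 in WAT and -0.28 to 0.75 in kidney. The liver-minus-WAT effect ranged from -0.0019 to 0.33 for Angptl4 and -0.99 to 0.058 for Gdf15.

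The called Stim-minus-Con difference of liver Cfd had the opposite sign in F (0.076). Several differences that did not pass over both sexes also had the opposite sign in 1 sex. In F these were, in liver, Gdf15 -0.67 for Stim minus Con and Fgf21 -0.55, Inhbe 0.055 and Cfd -1.77 for Con minus T0. In F WAT they were Adipoq 0.10 and Retn 0.10 for Stim minus Con and Gdf15 -0.49, Adipoq -0.062, Retn -0.023 and Nrg4 -0.43 for Con minus T0, and in F kidney Angptl8 -0.12 for Stim minus T0. In M they were liver Fgf21 -0.23 (Stim minus Con) and Gdf15 -0.66 (Con minus T0), WAT Angptl4 -0.43, Cfd -0.46 and Nrg4 -0.45 (Stim minus Con) and Cfd 0.13 (Con minus T0), and kidney Angptl8 0.14 (Stim minus Con). Liver Gdf15 Stim minus Con was -0.12 without the sex term. Without the 3 WAT libraries with reads of other tissues, Cfd was -0.31 and Nrg4 -0.17 for Stim minus Con and Gdf15 -0.020 for Con minus T0.

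With the animal as a block, which pairs liver and WAT, 0 members were called for the difference between the tissues. Cfd was then -4.88 and Gdf15 0.078, and the block changed no other call of a member.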

Other observations

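Genes of the same lists were also called in kidney and cortex for Stim minus Con. In kidney Scd1, a fatty acid desaturase, was lower in Stim by edgeR's test (-1.54 ± 0.28, log2, SE; adjusted p = 0.0113), with 819 ± 827 CPM in Con and 199 ± 125.2 CPM in Stim (SD, n = 8). In cortex, where 5.41% of all genes were called, the adiponectin receptors Adipor1 and Adipor2 were higher in Stim by 0.18 ± 0.05 and 0.30 ± 0.09 (edgeR adjusted p = 0.0283 and 0.0391). Cpt1a was higher there by 0.35 ± 0.10 (adjusted p = 0.043). Leaving out any 1 of 6 libraries ended the Adipor1 call, any 1 of 9 the Adipor2 call and any 1 of 10 the Cpt1a call.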
